A study of Mus musculus with 10 samples.

Results

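A set of 10 genes of the craniofacial mesenchyme was measured in the developing mouse pinna, the external part of the ear: *Prrx1*, *Prrx2*, *Twist1*, *Twist2*, *Msx1*, *Msx2*, *Tfap2b*, *Alx4*, *Gsc* and *Barx1*. All encode transcription factors. They were taken by name from the table of read counts through their Ensembl identifiers, which picked 10 of the 53465 genes listed, and all 10 were abundant enough to be tested.

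Craniofacial mesenchyme is the loose connective tissue of the head and pharyngeal arches, much of it derived from the cranial neural crest, from which bone, cartilage and dermis of the face and outer ear form. Homeodomain factors of the Prrx, Msx, Alx, Gsc and Barx families, basic helix-loop-helix factors of the Twist family and AP-2 factors give this tissue its regional identity and govern its growth and differentiation. Several of them are needed for a normal outer ear or middle ear, and *Gsc* and *Barx1* in particular mark restricted domains of the pharyngeal arches.

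The tissue was the pinna prominence micro-dissected from E14.5 embryos (named for their embryonic day) of wild-type (WT) mice and of mice homozygous for a knock-in that adds a further copy of the enhancer mEC1, written mEC1dup/dup, both on a C57BL/6J background, with 5 libraries of each genotype. The enhancer lies near *Hmx1*, a homeobox gene of the developing ear, and the comparison asks how the added enhancer copy altered gene expression in the pinna. The duplication is in the germ line and therefore present in every cell, and the whole prominence was sequenced, so mesenchyme was measured together with cartilage, epithelium, muscle and blood. A lower or higher transcript level in such bulk RNA can come from fewer or more cells of a type or from less or more RNA per cell, and these cannot be told apart.

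Libraries held between 17461544 and 18462073 gene counts, and all 10 general mesenchyme markers examined were abundant enough to be tested. Levels are given as CPM, read counts scaled to a common library size. *Hmx1* ranged from 21.7 to 29.1 CPM in the WT libraries and from 52.8 to 77.5 CPM in the mEC1dup/dup libraries, a log2 fold change of 1.31 (SE 0.10, edgeR quasi-likelihood test, adjusted p = 0.000127), with no overlap between the groups. *Xist*, the RNA of the inactive X chromosome, had 2 to 5 counts in the WT libraries, whereas 4 of the mEC1dup/dup libraries had 2096 to 19040 and the fifth had 0, so the X-chromosome state of the embryos was unevenly spread over the genotypes. Embryonic globins made up 18.4% to 23.3% of globin transcripts in WT and 32.5% to 35.6% in mEC1dup/dup. Their part in the differences below was examined only by adding each as a covariate. Only mEC1dup/dup replicate 5 was near the WT level of *Xist*, so fits with *Xist* compare largely that library with WT. With the globin share, which does not overlap between genotypes, the log2 fold change of *Hmx1* was 0.34 and its call ended (adjusted p = 0.921, edgeR). That fit called 0 genes in either direction, and the parts of genotype and globin share cannot be told apart. Nothing in the labels ties a library to a litter or a preparation day, so p-values measure the spread between these libraries.

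None of the 10 factors met the criteria for differential expression between mEC1dup/dup and WT, namely an adjusted p no higher than 0.05 over all 16426 tested genes together with a mean log2 CPM of 1 or more. Among all tested genes, 1.81% were called lower and 0.834% were called higher, against 0 of 10 members in either direction. At an unadjusted p under 0.05 there were 2 members, *Gsc* and *Barx1*, with higher levels in mEC1dup/dup, beside 2658 of the 16426 tested genes (16.2%), so 2 of 10 is near the share over all genes. The limma-voom fit also called 0 members, with 3 at an unadjusted p under 0.05. The DESeq2 Wald test called 1, *Gsc*. Both edgeR without a filter on low counts and edgeR with the replicate number as a block called 2, *Gsc* and *Barx1*. Over all genes, calls lower and higher were 506 and 315 with DESeq2, 329 and 132 without the filter, and 487 and 200 with the block. They were 276 and 119 with limma-voom and 297 and 137 in the reported fit. The log2 fold change was above zero for 7 members and below zero for *Twist2*, *Msx1* and *Tfap2b*, and the median over members was 0.08 beside -0.00415 over all tested genes. With *Xist* as a covariate 3 members were above zero, since *Prrx1*, *Prrx2*, *Twist1* and *Msx2* changed sign. That fit leans on mEC1dup/dup replicate 5, the only library of its genotype without *Xist* counts. Over all tested genes that fit called 1 lower and 2 higher. With the globin share added instead, *Prrx1*, *Msx1*, *Msx2*, *Tfap2b* and *Alx4* changed sign. In 1 member, *Gsc*, all mEC1dup/dup libraries lay above all WT libraries, as they did in 2.33% of all tested genes. They lay wholly below WT in 0 members and in 2.75% of tested genes.

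**Figure D1:**
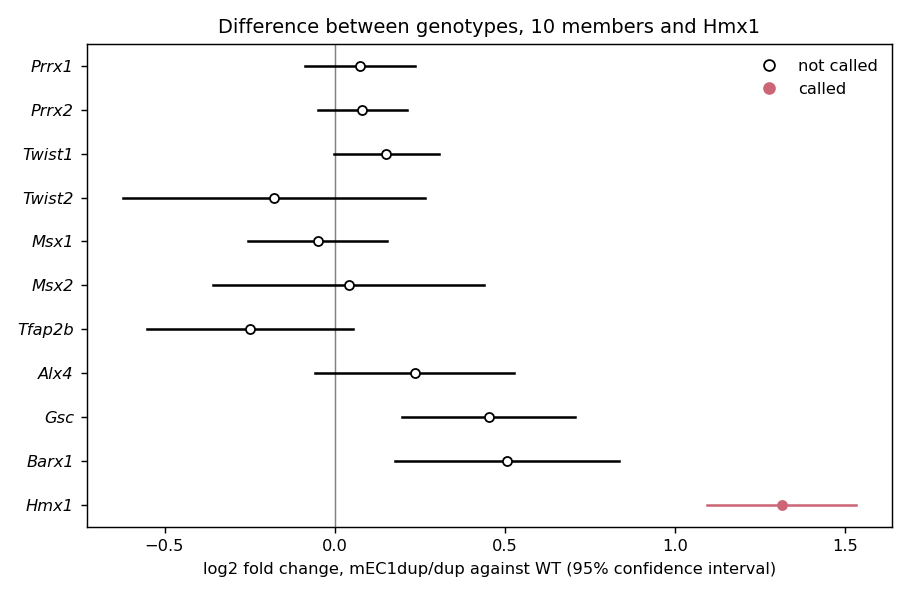
Log2 fold change of each member and of *Hmx1* in mEC1dup/dup against WT (horizontal axis), with the 95% confidence interval of the edgeR fit as a bar. Open circles were not called and the filled circle was called. The intervals of *Gsc* and *Barx1* lie above zero, those of the other 8 members include it, and *Hmx1* at 1.31 lies to the right of all of them.

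The absence of a call bounds the size of the differences unevenly. For *Prrx2* the 95% confidence interval ran from -3.36% to 15.8% of the WT level, and for *Prrx1* from -5.92% to 17.7%. For *Twist2*, the member with the fewest counts over all libraries together, it ran from -35.0% to 20.3%. For *Msx2*, the most variable member in WT, it ran from -22.0% to 35.7%. Differences of the size seen for *Barx1* would thus lie outside the interval of either Prrx gene.

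The factors differed widely in transcript level. Per kilobase of the canonical transcript, *Twist1* stood highest in WT at 162 ± 16.4 CPM per kb (SD, n = 5), and *Prrx1* followed at 106 ± 8.09 CPM per kb. *Barx1* came next at 38.4 ± 6.24 CPM per kb, without overlap with *Prrx1* or with *Msx1* at 26.5 ± 3.76 CPM per kb. *Msx1* overlapped *Prrx2*, which was at 19.6 ± 1.76 CPM per kb. The remaining 5, *Twist2*, *Msx2*, *Gsc*, *Tfap2b* and *Alx4*, lay between 9.46 and 12.3 CPM per kb on average, and each overlapped its neighbour in that order. In mEC1dup/dup the first 5 places were the same, and *Gsc* moved from the eighth place to the sixth with libraries from 13.0 to 15.7 CPM per kb. The length used changes this order. With all annotated exons merged, *Prrx1* was at 37.96 CPM per kb in WT, level with *Barx1*, and *Twist2* was at 2.96 CPM per kb, below every other member. On that length *Msx1*, at 16.1 CPM per kb, came after *Prrx2*, at 17.6 CPM per kb with overlapping libraries, and *Gsc* stood in the sixth place in WT.

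**Figure D2:**
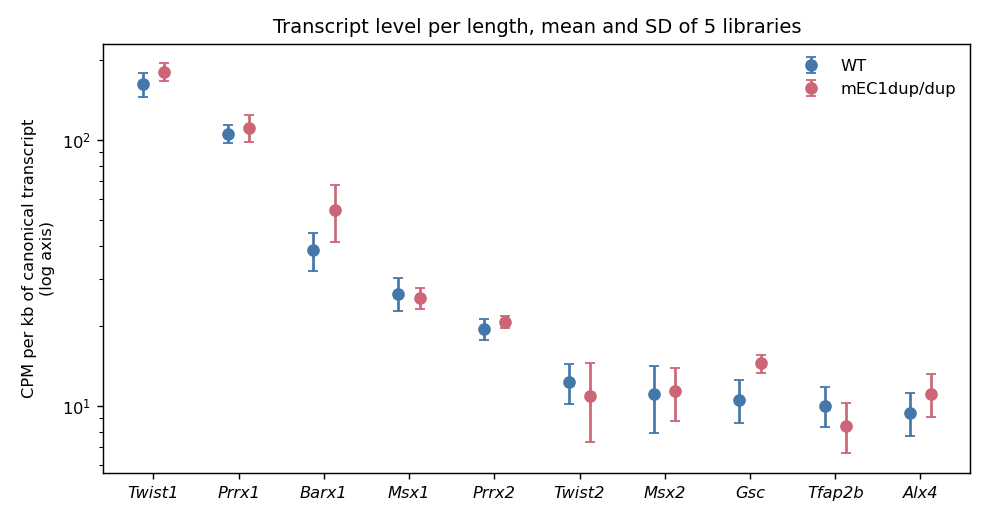
Transcript level of each member per kilobase of canonical transcript, on a log axis, with the mean and SD of 5 libraries for WT (blue) and mEC1dup/dup (red). *Twist1* and *Prrx1* stand above the rest in both genotypes, with no library below 94.8 CPM per kb, and the 5 members on the right lie close together.

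The Prrx homeobox genes are broad markers of limb and craniofacial mesenchyme, and their combined loss in mice disturbs the skull, jaw and ear. *Prrx1* (ENSMUSG00000026586, chr1:163041844-163142033, minus strand, GRCm39) had 597, 693, 666, 585 and 601 CPM in WT replicates 1 to 5 and 737, 688, 717, 600 and 564 CPM in mEC1dup/dup replicates 1 to 5. The ranges overlapped, and mEC1dup/dup held both the highest value, in replicate 1, and the lowest, in replicate 5. Its log2 fold change was 0.07 (SE 0.07, edgeR adjusted p = 0.692), and it turned to -0.15 with *Xist* added to the fit and to -0.25 with the globin share added. Without 1 library at a time it ran from 0.032 to 0.12. *Prrx2* (ENSMUSG00000039476, chr2:30724984-30774419, plus strand) had 89.8, 99.9, 92.7, 77.5 and 89.6 CPM in WT and 97.0, 96.9, 101, 93.1 and 87.7 CPM in mEC1dup/dup. WT replicate 4 was the lowest of all libraries and the others overlapped. The edgeR log2 fold change was 0.08 (SE 0.06, adjusted p = 0.563), and -0.036 with *Xist* as a covariate. Without 1 library at a time it ran from 0.029 to 0.13.

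The Twist factors are basic helix-loop-helix proteins that keep mesenchyme undifferentiated and act as dimers with E proteins. *Twist1* (ENSMUSG00000035799, chr12:34007645-34009828, plus strand) had 275, 297, 278, 224 and 265 CPM in WT and 323, 293, 316, 288 and 266 CPM in mEC1dup/dup. The mEC1dup/dup libraries lay in the upper part of a shared range, with 2 of them above every WT library. The difference in log2 CPM was 0.15 (SE 0.07, unadjusted p = 0.0517 and adjusted p = 0.313, edgeR), with a 95% confidence interval from -0.0906% to 23.6%. Without 1 library at a time it ran from 0.091 to 0.20. With *Xist* as a covariate it was -0.00399, and the part of genotype and that of the uneven *Xist* levels cannot be told apart.

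*Twist2*, also called Dermo1 for its role in dermis, had the smallest counts of the set over the 10 libraries together, from 143 to 364 per library. In WT alone *Gsc* was lower, with a mean of 13.9 CPM beside 16.5 CPM. *Twist2* (ENSMUSG00000007805, chr1:91729176-91796542, plus strand) measured 14.9, 20.2, 18.6, 13.2 and 15.5 CPM in WT and 20.1, 13.1, 13.8, 18.2 and 7.74 CPM in mEC1dup/dup. The mEC1dup/dup libraries were widely scattered around the WT range, with replicate 5 below all others. Its log2 fold change was -0.18 (SE 0.21, edgeR adjusted p = 0.737). It was -0.018 without mEC1dup/dup replicate 5 and -0.32 without replicate 1. With *Xist* as a covariate it was -0.88 (unadjusted p = 0.00782, adjusted p = 0.368, edgeR). That fit leans on replicate 5, the only mEC1dup/dup library without *Xist* counts and the lowest for *Twist2*. Over all alternatives the adjusted p ran from 0.368 to 0.971. Annotated exons of *Twist2* share 26.6% of their bases with the antisense RNA gene *Gm29100*, and no source states that strand was used in counting. *Gm29100* itself was low, with a mean of 3.08 CPM (SD 0.705, n = 5) in WT and of 3.39 CPM (SD 0.352, n = 5) in mEC1dup/dup.

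The Msx genes are homeobox targets of bone morphogenetic protein (BMP) signalling in facial and arch mesenchyme. *Msx1* (ENSMUSG00000048450, chr5:37977829-37981928, minus strand) had 57.9, 57.3, 52.4, 40.3 and 48.1 CPM in WT and 55.7, 50.3, 49.7, 48.6 and 42.9 CPM in mEC1dup/dup. Every mEC1dup/dup value lay within the WT range, and the log2 fold change was -0.05 (SE 0.09, edgeR adjusted p = 0.847), and -0.24 with *Xist* as a covariate (unadjusted p = 0.100, edgeR). Without 1 library at a time the log2 fold change ran from -0.13 to -0.00093. *Msx2* (ENSMUSG00000021469, chr13:53620914-53627110, minus strand) had 19.8, 39.9, 23.0, 26.8 and 26.6 CPM in WT and 19.2, 34.9, 31.5, 30.5 and 23.9 CPM in mEC1dup/dup. Both groups spread over a similar range, with replicate 1 lowest and replicate 2 highest in each. For *Msx2* the log2 fold change was 0.04 (SE 0.18, edgeR adjusted p = 0.942), and its sign turned when any of 4 single libraries was left out.

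*Tfap2b* encodes an AP-2 factor of neural crest and facial mesenchyme. *Tfap2b* (ENSMUSG00000025927, chr1:19279138-19309069, plus strand) had 64.1, 63.3, 68.4, 42.9 and 55.4 CPM in WT and 68.3, 46.4, 44.8, 46.2 and 42.1 CPM in mEC1dup/dup. In mEC1dup/dup, 4 libraries lay close together near WT replicate 4, the lowest of WT, and replicate 5 was just below that library. Replicate 1 of mEC1dup/dup stood apart near the top of the WT range. Between genotypes the log2 fold change was -0.25 (SE 0.14, edgeR adjusted p = 0.427), and -0.47 with *Xist* as a covariate (unadjusted p = 0.0548, edgeR). Without mEC1dup/dup replicate 1 it was -0.39 (adjusted p = 0.0868, edgeR), the lowest adjusted p over the alternatives, which reached 0.936. Of the other AP-2 genes, which are active in surface epithelium as well as in neural crest, 2 of 4 were abundant enough to be tested and neither was called. *Tfap2a* had a log2 fold change of -0.40 and *Tfap2c* of -0.41, each with an adjusted p of 0.162 (edgeR). Beside these values, 3 of 7 epithelial markers were called lower, *Krt5*, *Krt14* and *Perp*, and the summed epithelial markers ranged from 841 to 1482 CPM in WT and from 671 to 879 CPM in mEC1dup/dup. At an unadjusted p under 0.05 there were 6 of the 7, all lower, whereas *Epcam* had a log2 fold change of 0.043 (unadjusted p = 0.646, edgeR). Over all tested genes 1.81% were called lower and 16.2% had an unadjusted p under 0.05. The *Krt5* call was lost in 5 and the *Krt14* call in 6 of 10 fits without 1 library (both without WT replicate 2 or mEC1dup/dup replicate 2, 3, 4 or 5, and *Krt14* also without WT replicate 3), and *Xist* as a covariate ended all 3 calls, at an adjusted p of 0.363, 0.356 and 0.347 (edgeR), with log2 fold changes of -0.80, -0.78 and -0.87 beside -0.69, -0.64 and -0.79 without it. With the globin share added instead, the log2 fold changes of *Krt5*, *Krt14* and *Perp* turned to 0.64, 0.71 and 0.64. None of them was called in that fit (adjusted p = 0.898 for each, edgeR). The part of epithelial content in the AP-2 values was not tested.

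*Alx4* encodes an aristaless-like homeodomain protein of facial and limb mesenchyme. *Alx4* (ENSMUSG00000040310, chr2:93472729-93511685, plus strand) had 39.6, 56.0, 42.9, 48.5 and 61.5 CPM in WT and 49.5, 70.3, 66.4, 45.7 and 60.8 CPM in mEC1dup/dup. The groups overlapped, although 2 mEC1dup/dup libraries exceeded all of WT and 2 WT libraries fell below all of mEC1dup/dup. Its log2 fold change was 0.24 (SE 0.14, edgeR adjusted p = 0.437), and the 95% confidence interval ran from -3.86% to 44.2%.

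*Gsc*, the goosecoid homeobox gene, is a factor of the pharyngeal arches needed for the tympanic ring and external auditory canal. *Gsc* (ENSMUSG00000021095, chr12:104437468-104439632, minus strand) had 13.9, 14.4, 15.2, 9.64 and 16.2 CPM in WT and 17.9, 20.1, 20.6, 16.99 and 19.2 CPM in mEC1dup/dup. All 5 mEC1dup/dup libraries lay above all 5 WT libraries, although the gap between the highest WT library and the lowest mEC1dup/dup library was narrow. WT replicate 4 was the lowest of its group. The difference of 0.45 in log2 fold change (SE 0.12) corresponds to a level 36.8% above WT with a 95% confidence interval from 14.6% to 63.4%. The unadjusted p was 0.00211, which placed *Gsc* at rank 555 of the tested genes, and the adjusted p of 0.0625 in edgeR missed the threshold. Without WT replicate 4 the difference was smaller, at 0.34, and the adjusted p was 0.0303 (edgeR), which passes the threshold. With *Xist* as a covariate the log2 fold change was 0.43 (adjusted p = 0.499, edgeR), and over all alternatives the adjusted p ran from 0.00918 to 0.898 with the sign unchanged. With WT replicate 4 kept, *Gsc* was also called by the DESeq2 Wald test, without a filter on low counts, and with unscaled total counts. Adding the replicate number as a block called it too (adjusted p = 0.0160, edgeR). It was not called with WT replicate 4 and mEC1dup/dup replicate 5 both left out (adjusted p = 0.0544, edgeR).

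*Barx1*, a homeobox gene of pharyngeal arch mesenchyme and of forming cartilage and stomach, showed the largest fold change of the set, with 3 high and 2 lower mEC1dup/dup libraries. *Barx1* (ENSMUSG00000021381, chr13:48816384-48819983, plus strand) had 61.1, 52.0, 48.5, 53.0 and 71.7 CPM in WT and 62.4, 89.8, 92.2, 59.1 and 103 CPM in mEC1dup/dup. Replicates 2, 3 and 5 of mEC1dup/dup were above all WT libraries, whereas replicates 1 and 4 lay inside the WT range. On the log2 scale the fold change was 0.51 (SE 0.15), 42.2% above WT with a 95% confidence interval from 13.2% to 78.6%, with an unadjusted p of 0.00542 and an adjusted p of 0.103 (edgeR). Without a filter on low counts *Barx1* was called (adjusted p = 0.0424, edgeR), as it was with the replicate number as a block (adjusted p = 0.0401, edgeR). Over all alternatives the adjusted p ran from 0.0401 to 0.948. The summed level of chondrocyte markers ranged from 4779 to 7884 CPM in WT and from 2165 to 6321 CPM in mEC1dup/dup, and its part in the *Barx1* values was not tested. Of 6 chondrocyte markers, 0 were called and 2 had an unadjusted p under 0.05 (edgeR), both with lower levels in mEC1dup/dup.

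**Figure D3:**
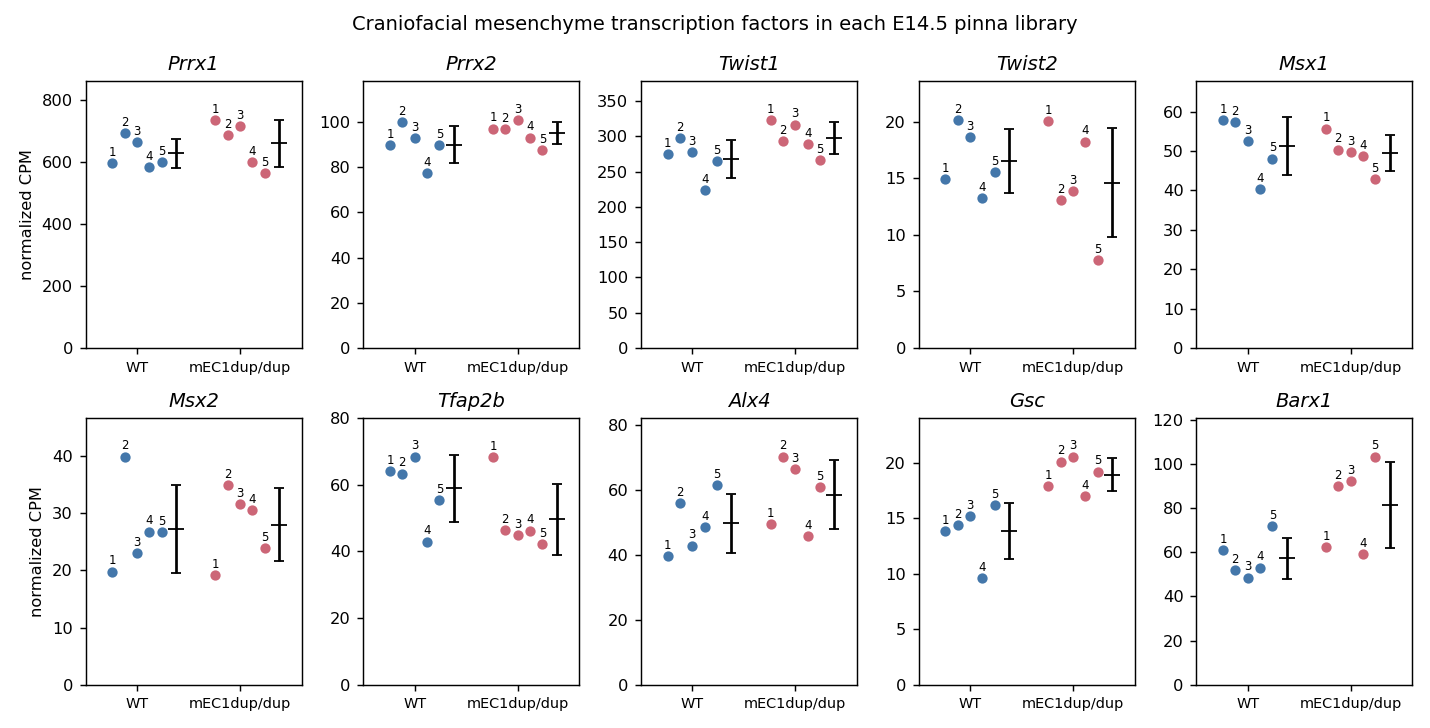
Normalized CPM of each member in every library of WT (blue) and mEC1dup/dup (red), with the replicate number above each point and the mean ± SD of 5 libraries as a black bar; each vertical axis starts at 0. *Gsc* shows 2 groups that do not overlap, from 9.64 to 16.2 CPM and from 16.99 to 20.6 CPM, and the groups of the other 9 members overlap.

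The sequence before the start of *Gsc* and *Barx1*, the members with the smallest p-values, is shown to give the context of the 2 genes. Both stretches come from RefSeq (GRCm38.p6), are written 5′ to 3′ on the gene's strand and cover the bases from 250 to 151 before the RefSeq start. Capitals mark CATCTG, an E-box of the kind bound by Twist dimers.
Gsc, chr12:104473387-104473486, minus strand: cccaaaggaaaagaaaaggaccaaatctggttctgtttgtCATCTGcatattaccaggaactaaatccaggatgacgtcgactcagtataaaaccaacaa
Barx1, chr13:48662786-48662885, plus strand: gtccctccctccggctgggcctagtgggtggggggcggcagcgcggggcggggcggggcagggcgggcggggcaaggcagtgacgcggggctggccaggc

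A search for 4 motifs was run on both strands in windows from 250 bases before to 50 bases after the start, which RefSeq gave for 9 of the 10 members, all but *Alx4*. TAATTA reads the same on both strands and begins with the same bases as TAATCC does. The core bound by HMX proteins, CAAGTG, was in 0 of 9 member windows and in 13.6% of all 32851 windows. CATCTG was in 1 of 9, that of *Gsc* at position -210 from the start, and in 17.2% of all windows. The homeodomain core TAATTA was in 2 of 9, those of *Prrx1* and *Msx2*, and in 5.29% of all windows. TAATCC, preferred by goosecoid-type homeodomains, was in 0 of 9 and in 7.06% of all windows. A match or its absence concerns only these letters in these short windows, and binding was not assayed here.

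The paralogue pairs were compared as log2 ratios within each library, which removes differences in depth. *Prrx1* exceeded *Prrx2* by 2.80 ± 0.08 in WT and 2.79 ± 0.10 in mEC1dup/dup (SD, n = 5), and the difference of -0.01 was smaller than the spread (exact permutation test, two-sided, adjusted p = 0.762). *Msx1* exceeded *Msx2* by 0.94 ± 0.43 in WT and 0.85 ± 0.40 in mEC1dup/dup (SD, n = 5), a difference of -0.09 (exact permutation test, two-sided, adjusted p = 0.762). The ratio of *Twist1* to *Twist2* was 4.02 ± 0.14 in WT and 4.41 ± 0.45 in mEC1dup/dup (SD, n = 5). That difference of 0.39 rested on scattered mEC1dup/dup libraries, from 3.98 to 5.08, and gave p = 0.0952 and an adjusted p of 0.286 over 3 pairs (exact permutation test, two-sided). The smallest p that the arrangements of 5 against 5 libraries allow is 0.00794.

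Within a genotype, several members were low or high in the same library. WT replicate 4 was the lowest WT library for 7 of the 10 members, and mEC1dup/dup replicate 5 was the lowest of its group for 6, namely *Prrx1*, *Prrx2*, *Twist1*, *Twist2*, *Msx1* and *Tfap2b*. These 6 were also among the 7 of WT replicate 4. *Barx1* ran the other way, with its highest value of all libraries in mEC1dup/dup replicate 5. *Alx4*, *Gsc* and *Barx1* shared both their highest WT library, replicate 5, and their lowest mEC1dup/dup library, replicate 4. The summed level of 10 general mesenchyme markers was also lowest in WT replicate 4, at 15934 CPM, against up to 24851 CPM in WT. In mEC1dup/dup it ran from 16469 to 18580 CPM and was 17766 CPM in replicate 5, the second highest of its group. Between genotypes, 1 of the 10 markers, *Lum*, was called lower with a log2 fold change of -0.30 (edgeR adjusted p = 0.00740), and 7 had an unadjusted p under 0.05, all of them with lower levels in mEC1dup/dup. Over all tested genes 1.81% were called lower and 16.2% had an unadjusted p under 0.05. The 7 were *Col1a1*, *Col1a2*, *Col3a1*, *Lum*, *Dcn*, *Postn* and *Fn1*. The others, *Pdgfra*, *Pdgfrb* and *Vim*, had log2 fold changes of 0.077, 0.0034 and -0.089. With *Xist* as a covariate the log2 fold change of *Lum* was -0.37 and the call ended (adjusted p = 0.167, edgeR). In the marker lists of skeletal muscle, endothelium, erythroid cells, macrophages, neurons and glia, and melanoblasts, 0 genes were called and 5 had an unadjusted p under 0.05 (edgeR), and the summed levels of the genotypes overlapped. Neuron and glia markers summed to 533 CPM in WT replicate 4 and to between 144 and 259 CPM in the other WT libraries. Erythroid markers summed to 1988 CPM in mEC1dup/dup replicate 5 and to between 956 and 1018 CPM in the others of that genotype. The part of these cells in the member values was not tested. With both WT replicate 4 and mEC1dup/dup replicate 5 left out, 0 members were called and 4 had an unadjusted p under 0.05 in edgeR. Over all tested genes that fit called 407 lower and 161 higher, beside 297 and 137 with all libraries. Its share of all genes at an unadjusted p under 0.05 is not given here, so the 4 members have no matching background.

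**Figure D4:**
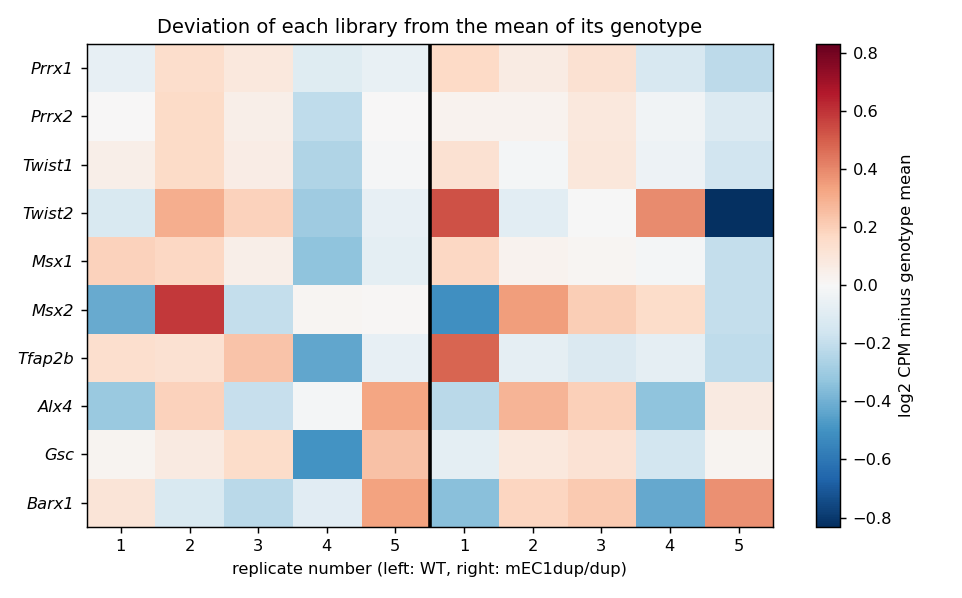
Deviation of log2 CPM from the mean of the genotype, for each member (rows) and library (columns, replicates 1 to 5 of WT on the left and of mEC1dup/dup on the right of the black line); red is above and blue below the mean. WT replicate 4 and mEC1dup/dup replicate 5 are blue for *Prrx1* to *Msx1* and for *Tfap2b*, and the strongest blue is *Twist2* in mEC1dup/dup replicate 5.

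Genes that act with or beside the members were taken from lists of known function, chosen with earlier results of these data known. At an unadjusted p under 0.05, the share over all tested genes was 16.2%. Among 32 further patterning factors of mesenchyme, 0 were called and 7 had an unadjusted p under 0.05 (edgeR), with a median log2 fold change of 0.13 and 8 below zero. Of 7 dimer partners and inhibitors of Twist, the E proteins and Id genes, 0 were called and 2 had an unadjusted p under 0.05, with a median of -0.02. Of 8 BMP ligands and feedback genes, which act upstream of and beside the Msx genes, 0 were called and 3 had an unadjusted p under 0.05, with a median of 0.14.

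The endothelin, Dlx and Hand genes, which pattern the ventral pharyngeal arches where *Gsc* is active, held the only calls among these lists, 2 of 7 tested, both higher. Over all tested genes 0.834% were called higher. Because the lists were chosen with earlier results of these data known, these counts are a description and not a test. At an unadjusted p under 0.05 there were 4 of the 7 (edgeR), beside 16.2% of all tested genes. All mEC1dup/dup libraries lay above all WT libraries in 3 of the 7, as in 2.33% of all tested genes. *Hand2*, a basic helix-loop-helix factor, was at 11.8, 11.1, 13.0, 8.36 and 12.1 CPM in WT and 17.9, 15.0, 16.3, 22.1 and 16.5 CPM in mEC1dup/dup, with no overlap. Its log2 fold change was 0.64 (SE 0.13, edgeR adjusted p = 0.0186). *Dlx3*, a distal-less homeobox gene, ranged from 58.9 to 78.3 CPM in WT and from 82.7 to 105 CPM in mEC1dup/dup, also with no overlap. Its log2 fold change was 0.35 (SE 0.08, edgeR adjusted p = 0.0309), and the call was lost when WT replicate 1, 2 or 5 or mEC1dup/dup replicate 2 or 3 was left out, with an adjusted p of up to 0.0846. *Xist* as a covariate ended both calls, at an adjusted p of 0.365 for *Hand2* and 0.606 for *Dlx3* (edgeR), with log2 fold changes of 0.64 and 0.21. Over all alternatives the adjusted p ran from 0.000133 to 0.898 for *Hand2* and from 0.000971 to 0.898 for *Dlx3*. The median of the 7 was 0.35.

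**Figure D5:**
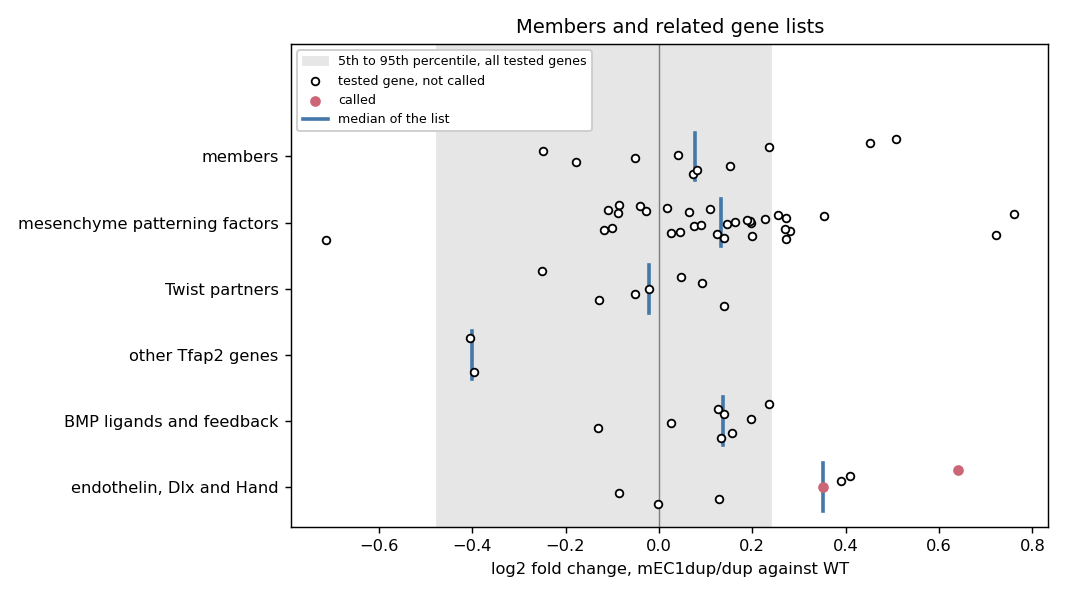
Log2 fold change in mEC1dup/dup against WT for the members and for 5 lists of related genes, with 1 circle per tested gene, the list median as a blue line and the range from the 5th to the 95th percentile of all tested genes in grey. The called genes, *Dlx3* and *Hand2*, are filled, and *Gsc* and *Barx1* lie at 0.45 and 0.51, to the right of the grey band.

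Across the 10 libraries, after the genotype means were removed, the tested genes whose log2 CPM most resembled that of *Gsc* were *Ehmt2*, *Il6st* and *Per2*, each with a Pearson r of 0.95. These are descriptions over libraries that share their dissection and depth, chosen as the highest among 16426 genes. Their own log2 fold changes between genotypes were 0.06, 0.03 and 0.06.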

How the data were processed

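RNA from pinna prominences of E14.5 embryos was sequenced as paired ends in 10 libraries. Trimming was done with fastp and alignment with STAR against GRCm39, and the authors deposited raw counts per Ensembl gene from featureCounts; limma and edgeR are also named in their processing notes. The annotation release, the strand setting and the handling of multi-mapping reads are not given in the sources used here, and the labels and the study's methods name different library kits. Of the 53465 gene rows, 49355 matched GENCODE vM39, from which symbols, positions and lengths were taken.

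Counts were fitted with edgeR 4.0.16 in R 4.3.3 (filterByExpr, TMM, glmQLFit and glmQLFTest, genotype only), and p-values were adjusted by Benjamini-Hochberg over 16426 genes. Genes were called when the adjusted p did not exceed 0.05 and the mean log2 CPM reached 1. CPM values use TMM library sizes, and log2 values a prior count of 2. Paralogue ratios were tested by exact permutation of libraries. Libraries of one genotype were not copies of each other (pairwise chi-square of 2.55 to 18.2 per degree of freedom). On simulated counts for this comparison, 94.5% of 200 genes with a log2 change of 1 were recovered, with 7 unchanged genes called. The largest member difference was 0.51, for *Barx1*, and recovery of changes of that size or smaller was not simulated. Total counts of about equal size in all libraries gave members 143 or more counts each. Alternatives used DESeq2 1.42.0, limma 3.58.1, other scalings, filters and thresholds, covariates and omitted libraries. Genes named were the 10 members, *Hmx1*, *Xist*, called genes of the related and marker lists, and the 3 genes most like the member with the smallest p. *Gm29100* was named for its overlap with *Twist2*. *Tfap2a*, *Tfap2c*, *Epcam* and the uncalled mesenchyme markers were named after their values were seen. The members and gene lists were chosen with earlier results of these data known. Figures were drawn with matplotlib.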

Additional observations from a re-analysis of the deposited data

Results flagged for a closer look

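Among the 20 groups of 5 libraries formed by the 10 members and 2 genotypes, 1 held a library far from the rest. *Tfap2b* in mEC1dup/dup replicate 1 was at 68.3 CPM, while the other 4 libraries lay between 42.1 and 46.4 CPM, and its gap to the nearest of them was 0.839 of the range of the group, above the 95% critical value of Dixon's test. Chance alone gives about 1 such group in 20. The same library was the highest of its group for 5 members, and it had the lowest summed chondrocyte markers of all libraries, at 2165 CPM. Whether these are connected was not tested.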

How the results depend on the processing

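Each member was refitted under 23 alternatives, of which 2 were added after the data were seen. Of the 230 log2 fold changes, 13 changed sign and 7 came to pass the threshold. No member was called lower under any of them. The number called higher, 0 in the reported fit, was 1 with the DESeq2 Wald test (*Gsc*, adjusted p = 0.00918), 1 with total counts without normalization factors (*Gsc*, 0.0472), an added alternative, and 2 without a filter on low counts (*Gsc*, 0.0413, and *Barx1*, 0.0424). Leaving out 1 library at a time gave 0 to 1, the 1 being *Gsc* without WT replicate 4. Adding the replicate block gave a count of 2 (*Gsc*, adjusted p = 0.0160, and *Barx1*, 0.0401). Libraries of the same number correlated in their deviations from the genotype mean at -0.056 to 0.34, not above 0.1 in every pair. The mean was 0.16, beside -0.040 for libraries of different numbers. No label ties a number to a litter or a day, so whether the numbers pair the libraries is not known. With *Xist* as a covariate the signs changed for *Prrx1* (-0.15), *Prrx2* (-0.036), *Twist1* (-0.00399) and *Msx2* (-0.17), and 3 members stayed above zero. That fit leans on mEC1dup/dup replicate 5, the only library of its genotype without *Xist* counts. Over all tested genes 1 was then called lower and 2 higher (edgeR). The share of embryonic globins, which does not overlap between genotypes, left little independent information. As a covariate it turned *Prrx1* (-0.25), *Msx1* (0.45), *Msx2* (-1.30), *Tfap2b* (0.49), *Alx4* (-1.04), *Krt5* (0.64), *Krt14* (0.71) and *Perp* (0.64), with 0 called genes overall in either direction (edgeR). *Msx2* changed sign in 4 of 10 fits without 1 library, over a range from -0.054 to 0.23. The same omissions moved the difference in paralogue ratio from -0.048 to 0.013 for Prrx and from -0.26 to 0.060 for Msx, and from 0.22 to 0.49 for Twist. Over all tested genes, calls ran from 0 to 506 lower and from 0 to 315 higher. At 143 to 379 counts per library, *Twist2* and *Gsc* were measured with the least counting precision.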
